A study of Mus musculus with 2 samples.

Results

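The collagen genes described here are those outside the cartilage-specific types. They were taken by name, as every probe set annotated to exactly 1 gene symbol of the form of a collagen α chain, leaving out *Col2a1*, *Col9a1*, *Col9a2*, *Col9a3*, *Col10a1*, *Col11a1*, *Col11a2* and *Col27a1*. This gave 34 genes of 18193 named on the array, measured by 69 probe sets of 34945 with 1 symbol. By class, 7 were fibrillar, 9 belonged to basement membranes, 5 were chains of type VI, 6 were FACIT collagens and 7 were of other kinds. Expression was measured on an Affymetrix mouse array in superficial zone (SFZ) cells, from the surface of the articular cartilage of femur and tibia, and in costal chondrocytes (CC), from rib cartilage, both of ICR mice at postnatal day 4. Both kinds of cell were cultured in DMEM with 10% FBS before RNA was taken. The sources used here do not give the number of mice behind each RNA. There was 1 array for SFZ cells and 1 for CC, so no difference could be checked against replicates or tested.

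Collagens are secreted as trimers of α chains wound into a triple helix. Fibrillar collagens of types I, III and V build the fibrils of bone, tendon, skin and loose connective tissue, whereas hyaline cartilage is built mainly on types II, IX and XI. FACIT collagens sit on the surface of fibrils, type IV forms the sheet-like network of basement membranes, and type VI forms beaded filaments around cells, including the pericellular matrix of chondrocytes. Chondrocytes that are grown in monolayer are known to take up synthesis of type I collagen.

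The values are MAS5 signals, a linear intensity for each probe set, which is a series of oligonucleotides directed mostly at the 3′ end of a transcript. The median signal was 28.1 in SFZ cells against 32.04 in CC. The signals of 86 probe sets for odorant, taste and vomeronasal receptors served as background, with levels of 28.2 for the SFZ array and 26.05 for the CC array. Signals of different genes were not set against each other, since probe sets differ in how well they bind. Sums over marker lists are compared only between the arrays, and their brightest genes weigh most. The 10895 named genes that exceeded background on each array had a median of -0.18 for the log2 ratio, taken as SFZ cells over CC. It was 0.01 once the arrays were scaled to the same median and 0.05 with quantile normalization. The value of -0.18 is a median over genes. Whether a shift of that size is common to all ratios as deposited was not tested. As a check of the labels, *Prg4*, which marks the superficial zone, had a signal of 323 in SFZ cells against 73.6 in CC. Of the other superficial zone markers listed, *Thbs4* was higher in CC, at 108 (SFZ cells) and 388 (CC), and the joint gene *Gdf5*, at 93.1 (SFZ cells) and 74.2 (CC), and *Abi3bp*, at 1326 (SFZ cells) and 1296 (CC), passed no threshold. The chondrocyte genes *Acan*, encoding aggrecan, and *Sox9* had signals of 7772 and 902 in SFZ cells, and of 5588 and 1150 in CC.

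Of the 34 collagen genes, 0 passed the thresholds in SFZ cells and 7 passed them in CC. A gene passed, and is called higher in that cell type, where its brighter signal was over 100 and its ratio over 2, on its brightest probe set. The genes higher in CC were *Col4a1*, *Col4a2* and *Col18a1* of basement membranes, the FACIT genes *Col14a1* and *Col19a1*, *Col5a3* and *Col8a1*. That was 20.6% of the collagen genes, where 1.18% of all named genes passed in SFZ cells and 5.41% passed in CC. Above background on at least 1 array were 26 of the 34, and 26.9% of these were higher in CC, where the shares of all named genes above background were 1.72% for SFZ cells and 7.89% for CC. On the level of probe sets, 0 of 69 passed in SFZ cells and 12 in CC, where the shares over all named probe sets were 0.947% for SFZ cells and 4.33% for CC. With quantile normalization 4 of the 7 passed, *Col4a1*, *Col8a1*, *Col14a1* and *Col19a1*, and 0 collagen genes were higher in SFZ cells under any alternative tried. Among all named genes past the thresholds, the share higher in SFZ cells was 17.8% as deposited, 30.4% with equal medians and 35.4% with quantile normalization.

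**Figure D1:**
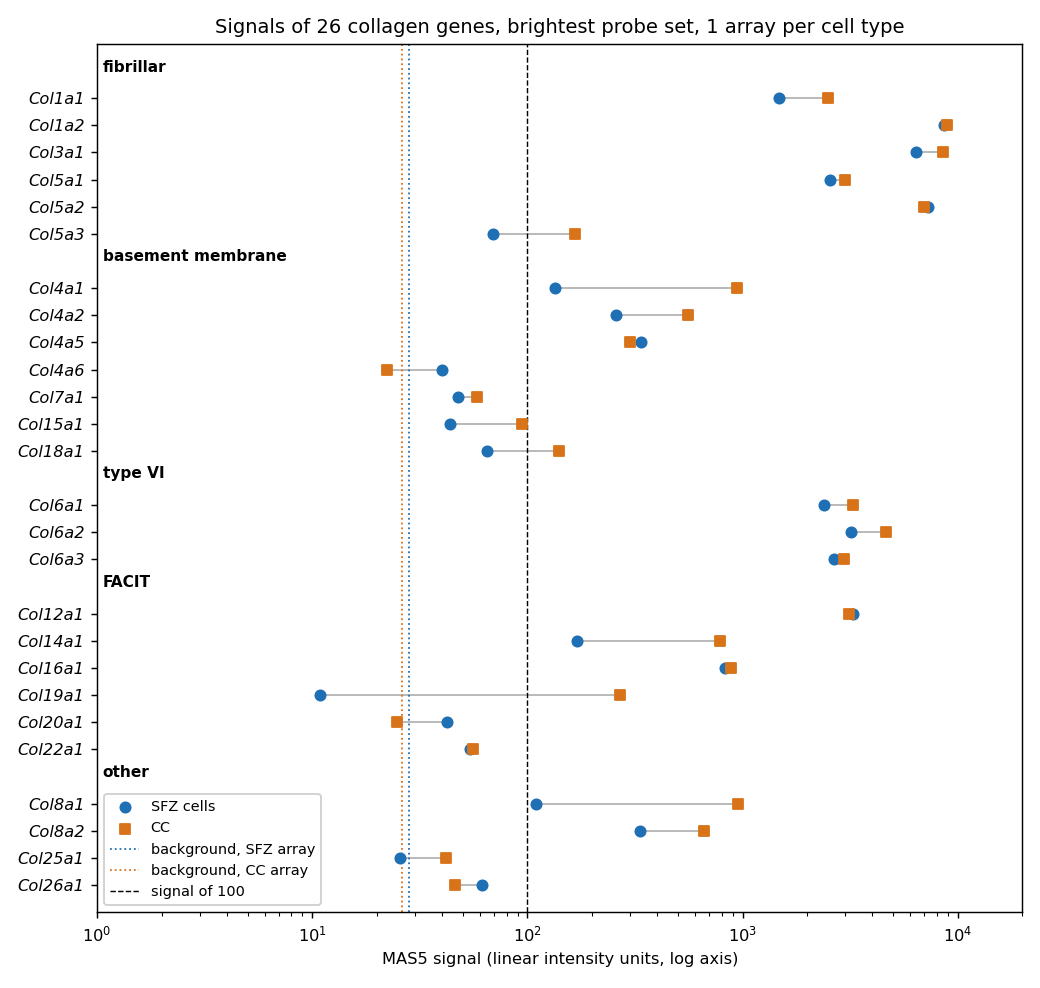
MAS5 signals, on a log axis, of the 26 collagen genes that exceeded background on either array, by class, on the brightest probe set of each gene. Circles are the SFZ array, squares the CC array, dotted lines the background of 28.2 for SFZ and 26.05 for CC, and the dashed line a signal of 100. The genes of types I, III, V and VI shown lie above 1000 on both arrays, except *Col5a3*, and *Col19a1* is under background on the SFZ array.

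Since the spread of ratios depends on the signal, the counts were set beside those of all named genes of like signal. With a mean signal from 100 to 1000, 5 of 8 collagen genes were higher in CC, where the shares of 6598 named genes were 1.83% for SFZ cells and 9.08% for CC. With a mean signal from 1000 to 10000, 0 of 9 collagen genes passed, near the shares of 1695 named genes, which were 2.30% for SFZ cells and 3.07% for CC. The SD of log2 ratios over all genes above background on both arrays was 0.49 in the upper range and 0.71 in the lower one, which holds both noise and true differences.

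**Figure D2:**
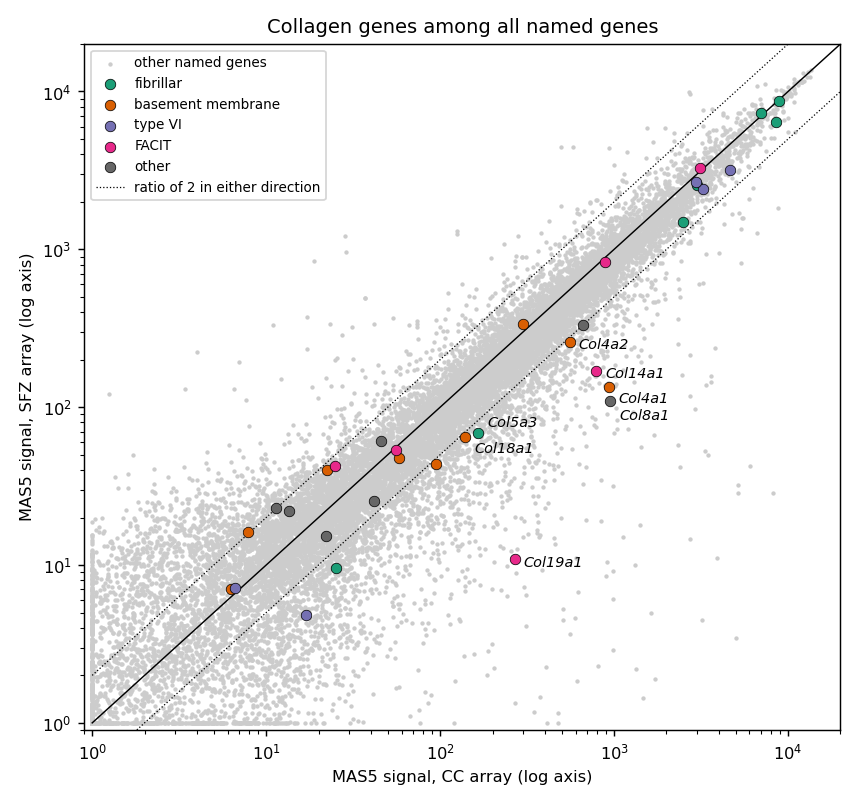
Signals on the SFZ array against those on the CC array for the named genes, on log axes, on the brightest probe set of each, with signals under 1 drawn at 1 for the other genes. The solid line marks equal signals and the dotted lines a ratio of 2. The fibrillar and type VI genes above 1000 lie between the dotted lines, and the 7 labelled genes, past the thresholds, lie under the lower one, as do some genes under a signal of 100.

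Promoter sequence was looked up for the genes on which these results turn. RefSeq promoters of build GRCm38.p6 were listed for 27 of the 34 genes, from 250 bases before the annotated start to 50 after it. *Col1a1*, *Col5a2*, *Col4a3*, *Col12a1*, *Col14a1*, *Col22a1* and *Col26a1* were not listed. The 250 bases before the start are shown for *Col1a2* and *Col3a1*, whose brightest probe sets passed no threshold, and for *Col8a1*, which had the lowest ratio of SFZ cells over CC of the genes above background on both. Capitals mark a CCAAT box (CCAAT), a GC box (GGGCGG) or a TATA box (TATAAA), each searched on both strands, so that the reverse complement also counts.
Col1a2, chr6:4505368-4505617, plus strand: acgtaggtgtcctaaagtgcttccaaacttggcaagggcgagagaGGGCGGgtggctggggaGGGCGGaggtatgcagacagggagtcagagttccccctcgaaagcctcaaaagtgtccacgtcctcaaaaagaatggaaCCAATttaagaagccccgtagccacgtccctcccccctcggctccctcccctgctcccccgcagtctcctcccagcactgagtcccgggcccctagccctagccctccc
Col3a1, chr1:45311288-45311537, plus strand: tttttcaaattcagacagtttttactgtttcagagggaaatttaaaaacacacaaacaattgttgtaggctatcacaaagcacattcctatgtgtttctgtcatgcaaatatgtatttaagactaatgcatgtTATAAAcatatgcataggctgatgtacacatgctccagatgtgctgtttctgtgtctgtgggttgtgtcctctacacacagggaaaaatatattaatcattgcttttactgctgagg
Col8a1, chr16:57754738-57754987, minus strand: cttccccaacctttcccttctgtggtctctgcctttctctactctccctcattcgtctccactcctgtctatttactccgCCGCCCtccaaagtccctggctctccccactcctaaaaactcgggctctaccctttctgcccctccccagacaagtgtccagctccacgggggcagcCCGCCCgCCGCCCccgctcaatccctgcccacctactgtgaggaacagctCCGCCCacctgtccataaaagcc
*Col1a2* had 1 CCAAT box and 2 GC boxes, *Col3a1* had 1 TATA box, and *Col8a1* had 4 GC boxes, all read on the other strand. These letters describe the window and say nothing of which factor binds there. Over the whole window, 11 of the 27 listed collagen genes held a CCAAT box, 17 a GC box and 3 a TATA box, where the shares of all 32851 promoters were 37.4%, 35.7% and 13.6%. The collagen counts are per gene, where any listed promoter of the gene could hold the motif, whereas the shares are per promoter.

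*Col4a1* and *Col4a2* are known to be transcribed away from each other, and both were higher in CC. In the promoter table their annotated starts lay 21 bases apart and their windows shared 78 bases. The start of *Col4a1*, on the minus strand, lay beyond that of *Col4a2*, on the plus strand, so that the annotated transcripts overlapped at their 5′ ends by 22 bases. This stretch, after the start of each gene, is shown because both windows hold it, and its capitals mark a GC box.
Overlap of Col4a1 and Col4a2, chr8:11312805-11312826, plus strand: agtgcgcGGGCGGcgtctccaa
The starts of *Col4a6* and *Col4a5*, another divergent pair, did not overlap in this way, and lay 1343 bases apart with windows that shared 0 bases.

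Of 7 fibrillar genes, 1 was higher in CC, *Col5a3*, and the other genes of types I, III and V passed no threshold on their brightest probe sets. The shares of all named genes that passed were 1.18% for SFZ cells and 5.41% for CC. Each class is small, so the counts by class, here and below, are not read as results about a class. *Col1a1*, which encodes the main chain of type I collagen, was at 1482 in SFZ cells against 2503 in CC, with a ratio of 0.592. Its other probe set, at 1149 (SFZ cells) and 1814 (CC), had a ratio of 0.634, so both lay below 1 and neither reached the threshold. *Col1a2*, encoding the partner chain, was at 8677 in SFZ cells against 8919 in CC, with a ratio of 0.973. Its second probe set, at 5204 (SFZ cells) and 6249 (CC), had a ratio of 0.833, and the dim one, at 28.7 (SFZ cells) and 42.0 (CC), had a ratio of 0.682.
*Col3a1*, encoding the collagen of distensible tissues such as skin and vessel walls, gave answers that differed between probe sets. The brighter probe set was at 6421 in SFZ cells against 8516 in CC, with a ratio of 0.754. The other was at 374 in SFZ cells against 1346 in CC, with a ratio of 0.278, and passed the thresholds in CC. The direction was the same on both, and the size of the difference depends on the probe set taken.
Type V chains enter type I fibrils and control how they start and how thick they grow. *Col5a1* was at 2547 in SFZ cells against 2990 in CC, and its 3 probe sets had ratios from 0.852 to 1.10. *Col5a2* was at 7305 (SFZ cells) and 6944 (CC), with ratios of 1.05 and 1.01. *Col5a3*, a chain found in only some type V trimers, was at 69.0 in SFZ cells against 166 in CC, with a ratio of 0.416. It did not pass after quantile normalization. *Col24a1*, a minor fibrillar collagen known from developing bone of the mouse, was under background on both arrays.

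Of the FACIT genes, 2 of 6 were higher in CC, where 5.41% of all named genes were, and 4 passed no threshold. *Col12a1*, a collagen of dense connective tissue and of fibrils under tension, was at 3252 in SFZ cells against 3113 in CC, with a ratio of 1.04. A second probe set, at 555 (SFZ cells) and 600.1 (CC), had a ratio of 0.926. *Col14a1*, its closest relative, was at 169 in SFZ cells against 786 in CC, with a ratio of 0.215. A second *Col14a1* probe set was at 39.5 (SFZ cells) and 157 (CC), a ratio of 0.251, so both probe sets above background passed in CC. The log2 ratio was -2.21 for *Col14a1* and 0.06 for *Col12a1*.
*Col19a1*, found at basement membrane zones and in differentiating muscle of mouse embryos, was at 10.9 in SFZ cells, under background, and at 268 in CC. It was at least 9.52-fold lower in SFZ cells. A second probe set was at 9.88 in SFZ cells, also under background, and at 217 in CC, and the third was under background on both arrays. *Col16a1*, encoding a minor fibril-associated chain, was at 831 in SFZ cells against 887 in CC, with a ratio of 0.937. *Col22a1*, known from the junction of muscle and tendon, was at 53.9 (SFZ cells) and 55.9 (CC). *Col20a1* had 42.5 in SFZ cells and 24.9, under background, in CC, at least 1.63-fold higher in SFZ cells but under the minimum of 100. Its other probe sets were under background on both arrays.

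Basement membrane collagens, 9 genes, held 3 of the 7 genes higher in CC, where 5.41% of all named genes were higher in CC. *Col4a1* and *Col4a2* encode the chains of the type IV network present in nearly every basement membrane, such as those around muscle fibers, adipocytes and vessels. *Col4a1* was at 135 in SFZ cells against 940 in CC on its brightest probe set, a ratio of 0.143, and at 72.3 (SFZ cells) and 298 (CC) on the other, a ratio of 0.243. *Col4a2* was at 259 in SFZ cells against 557 in CC on its only probe set, a ratio of 0.464. Both genes were thus lower in SFZ cells, *Col4a1* by more.
The other type IV chains passed no threshold. *Col4a5*, whose product joins networks of kidney, lung and smooth muscle, was at 336 in SFZ cells against 301 in CC, and its second probe set at 148 (SFZ cells) and 119 (CC), with ratios of 1.12 and 1.24. *Col4a6* had 40.1 in SFZ cells and 22.3, under background, in CC, at least 1.54-fold higher in SFZ cells but under the minimum of 100. Its other probe set was under background on both arrays. *Col4a3* and *Col4a4*, whose products join that of *Col4a5* in the kidney glomerulus, were under background on both arrays.
The multiplexins of types XV and XVIII lie at the border of basement membranes, and the C-terminal fragment of the product of *Col18a1* is endostatin. *Col18a1* had 64.9 in SFZ cells against 140 in CC, with a ratio of 0.465, and passed. Its second probe set, at 55.5 (SFZ cells) and 82.5 (CC), had a ratio of 0.672 and did not pass. *Col15a1* had 43.6 in SFZ cells against 94.4 in CC, with a ratio of 0.461, under the minimum of 100. *Col7a1*, encoding the anchoring fibrils of skin, was at 47.5 (SFZ cells) and 58.1 (CC). *Col4a2* and *Col18a1* did not pass after either scaling, while *Col4a1* passed under every alternative scaling.

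Of the 5 type VI genes, 0 passed a threshold, where 1.18% of all named genes passed in SFZ cells and 5.41% in CC. Above background were 3, the classical chains. *Col6a1* had 2397 in SFZ cells against 3252 in CC, with a ratio of 0.737. *Col6a2* had 3193 in SFZ cells against 4628 in CC, with a ratio of 0.690, with 0.555 on its second probe set. *Col6a3*, encoding the long chain, was at 2672 (SFZ cells) and 2973 (CC), a ratio of 0.899. All 3 had ratios under 1 as deposited, whereas the log2 ratio of *Col6a3* was 0.03 after scaling to equal medians. *Col6a4* and *Col6a5*, which encode chains that can stand in for that of *Col6a3*, were under background on both arrays.

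Among the 7 other collagens, 1 was higher in CC, the type VIII gene *Col8a1*, where 5.41% of all named genes were higher in CC. Type VIII collagen forms open lattices in the cornea and in vessel walls. *Col8a1* had 110 in SFZ cells against 952 in CC, with a ratio of 0.116, the lowest of the collagen genes above background on both arrays. Its second probe set was at 79.6 in SFZ cells against 493 in CC, with a ratio of 0.162. On the third the CC signal was 95.8 and the SFZ signal of 12.9 was under background. *Col8a2* had 332 in SFZ cells against 662 in CC, with a ratio of 0.503, just short of the threshold, as CC over SFZ was 1.99. *Col26a1* was at 61.2 (SFZ cells) and 45.9 (CC), and *Col25a1*, a transmembrane collagen of developing muscle innervation in mice, at 25.5 in SFZ cells, under background, and 41.8 in CC, at least 1.48-fold lower in SFZ cells. The other transmembrane collagens, *Col13a1*, *Col17a1* and *Col23a1*, were under background on both arrays. The 8 genes under background on both arrays had signals from 4.81 to 23.0 in SFZ cells and from 6.31 to 25.4 in CC on their brightest probe sets.

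Medians of the log2 ratio were taken by class on the brightest probe sets. Signals were raised to the background level, and genes that exceeded background on neither array were not used. The median was -1.11 over 7 basement membrane genes, -0.78 over 4 other collagens, -0.44 over 3 type VI genes, -0.32 over 6 fibrillar genes and -0.07 over 6 FACIT genes. This order depended on the rule for probe sets. Taking each gene at the median of its probe sets gave -1.81 for other collagens, -1.115 for FACIT genes and -0.84 for basement membrane genes. It gave -0.44 for type VI and -0.26 for fibrillar genes. Under that rule *Col20a1*, *Col22a1*, *Col25a1*, *Col26a1* and *Col5a3* fell to background on both arrays and were not used. The medians of other collagens, FACIT and fibrillar genes were thus over fewer genes. On the brightest probe sets, the median over all 26 collagen genes was -0.42, against -0.18 over 12477 named genes. Of the 26, 20 had ratios under 1 and 6 had ratios over 1. The median over all named genes was also under 0, and their share of ratios under 1 was not computed. This count is therefore not read as a result about collagens. The log2 ratios of *Col1a2*, *Col16a1* and *Col22a1* turned positive under both other scalings, and the FACIT median with them, to 0.11 with equal medians and 0.14 with quantile normalization. The FACIT class had the widest spread, from -3.25 to 0.70, and its median lay among the genes close to equal. With type IV chains only, the median of the basement membrane class was -0.47, because *Col4a5* and *Col4a6* lay on the other side of 0.
The cartilage collagens had a median of 0.50 over 8 genes, with 2 higher in SFZ cells and 0 higher in CC. The shares of all named genes were 1.18% for SFZ cells and 5.41% for CC. Ratios were under 1 for *Col2a1*, at 0.909, *Col9a1*, at 0.991, and *Col27a1*, at 0.882, and *Col11a1* had 1.11, *Col11a2* 1.81 and *Col9a2* 1.92. *Col10a1*, of hypertrophic cartilage, was at 1254 in SFZ cells against 126 in CC, and *Col9a3*, of cartilage fibrils, at 7799 (SFZ cells) and 3668 (CC). With 1 array per cell type the difference between these medians could not be tested.

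**Figure D3:**
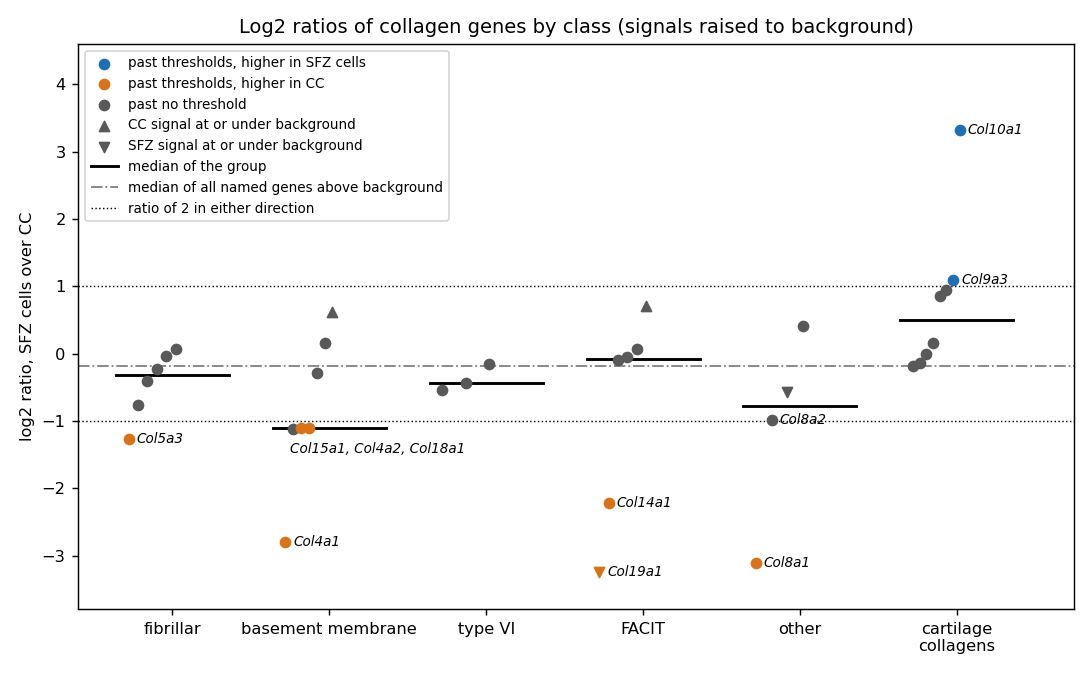
Log2 ratios of SFZ cells over CC by collagen class, with signals raised to the background level, for genes above background on at least 1 array, 1 array per cell type. Bars are medians, colors mark genes past the thresholds, and triangles mark genes whose value is a bound because 1 signal was at or under background. On these probe sets the medians are -1.11 for basement membrane genes, -0.07 for FACIT genes and 0.50 for the cartilage collagens.

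Chains of the same collagen type did not always have the same ratio. The spread between probe sets of 1 gene, pooled over 5035 genes, had an SD of 0.31 on the log2 scale, or 1.24-fold, and gives the only technical yardstick here. The log2 ratio of *Col8a1* minus that of *Col8a2* was -2.12, a 4.34-fold difference, and that of *Col4a1* minus that of *Col4a2* was -1.69, a 3.24-fold difference. *Col1a1* minus *Col1a2* was -0.72, or 1.64-fold, while the dimmest probe set of *Col1a2* came nearer to *Col1a1*. *Col5a3* lay 2.05-fold from *Col5a1* and 2.53-fold from *Col5a2*. The chains of type VI lay within 1.30-fold of each other, and *Col5a1* and *Col5a2* were 1.23-fold apart. For a difference of 2 ratios that SD comes to 0.44, and 6 of 10 pairs of chains differed by more. A cut of 1 SD is low, as technical spread alone often passes it, and the spread between cultures is not included. The type V pairs past it share the dim *Col5a3*. *Col4a5* minus *Col4a6*, at -0.46, lay just past the cut, with *Col4a6* under background in CC. It was -0.014 with the median over probe sets.
*Col19a1* is the neighbor of *Col9a1*, which was at 11711 in SFZ cells against 11816 in CC, whereas *Col19a1* was under background in SFZ cells. The log2 ratio was -0.41 for *Col3a1* and 0.07 for its neighbor *Col5a2*.

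**Figure D4:**
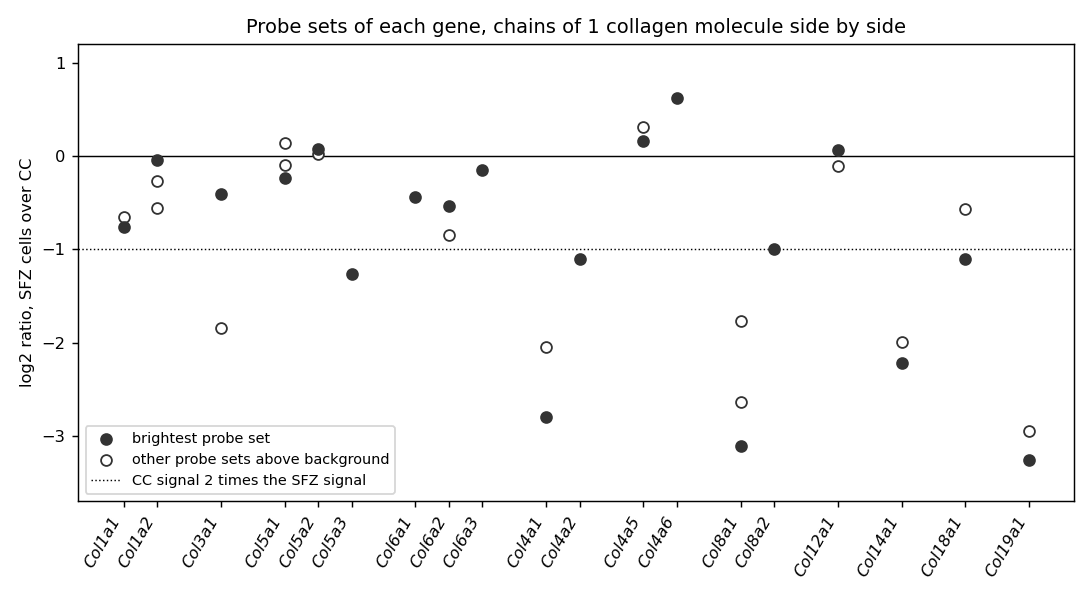
Log2 ratio (SFZ cells over CC) of each probe set above background on at least 1 array, in 19 collagen genes, with signals raised to background. The dotted line marks a CC signal 2 times the SFZ signal, chains of 1 collagen type stand side by side, filled points are the brightest probe set of a gene and open points the others. The probe sets of *Col3a1* lie 1.44 apart, and those of *Col14a1* and *Col4a1* are all below -1.

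Probe sets of 1 gene gave the same call in 10 of 13 collagen genes with more than 1 of them above background, and calls differed in *Col3a1*, *Col8a1* and *Col18a1*. The shared call was higher in CC for *Col4a1*, *Col14a1* and *Col19a1* only. In the other genes that agreed, these probe sets all passed no threshold. In *Col8a1* and *Col18a1* the probe set that did not pass had a CC signal under 100. Where every probe set above background had to pass, a rule chosen after seeing the data, 5 genes were higher in CC, namely *Col4a1*, *Col4a2*, *Col5a3*, *Col14a1* and *Col19a1*. In *Col5a3* and *Col4a2* only 1 probe set was above background.

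The list of genes that make and crosslink collagen holds hydroxylases, chaperones, export factors, propeptidases and lysyl oxidases, and 29 of 33 listed genes were named on the array. Of these, 1 passed in SFZ cells and 3 passed in CC, and the median log2 ratio was 0.22 over 27 genes above background. The shares of all named genes that passed were 1.18% for SFZ cells and 5.41% for CC. *Loxl3*, a lysyl oxidase, was at 1745 in SFZ cells against 668 in CC. Its relatives *Lox* and *Loxl1* were at 1702 and 520 in SFZ cells and at 5236 and 1925 in CC. *Bmp1*, encoding the procollagen C-propeptidase, was at 63.6 (SFZ cells) and 190 (CC). The collagen chaperone gene *Serpinh1*, at 9643 (SFZ cells) and 9481 (CC), had a ratio of 1.02.

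Markers of some other cell types were also higher on the CC array. A lower share of a cell type and less RNA per cell cannot be told apart in such samples. Of all named genes, 1.18% passed in SFZ cells and 5.41% passed in CC. All 13 skeletal muscle genes were higher in CC. They ranged from 2.19 to 68.8 in SFZ cells, with 9 at or under background, and from 291 to 8228 in CC, and their summed signal was 273 in SFZ cells against 32978 in CC. All 6 adipocyte genes named on the array were higher in CC, with a summed signal of 1037 in SFZ cells against 11902 in CC. Of these sums, *Lpl* alone gave 942 in SFZ cells and 4009 in CC. Fibroblast genes were higher in CC for 5 of 9, with sums of 1156 (SFZ cells) and 5759 (CC). Of the tendon genes 3 of 6 were higher in CC, with *Tnmd* at 87.2 (SFZ cells) and 747 (CC) and the regulator *Scx* at 54.7 (SFZ cells) and 68.9 (CC), and macrophage genes were higher in CC for 5 of 8, with sums of 477 (SFZ cells) and 2191 (CC).
Of the smooth muscle and pericyte genes, 1 of 8 passed in SFZ cells, *Cspg4*, and 3 passed in CC, with sums of 3932 (SFZ cells) and 9507 (CC). Endothelial genes passed in neither direction for 8 of 8, and were at most at 43.5 in SFZ cells and at 47.3 in CC. Osteoblast genes were higher in CC for 1 of 5 and Schwann cell genes for 1 of 4. Chondrocyte genes were higher in SFZ cells for 2 of 10, with sums of 57941 (SFZ cells) and 41400 (CC). *Matn1*, at 9989 (SFZ cells) and 2692 (CC), weighs much in these sums, and *Sox5*, *Sox6*, *Sox9* and *Cnmd* had ratios under 1. Of 8 superficial zone markers 1 passed in SFZ cells and 1 in CC. The markers that are under background in SFZ cells include *Myog*, at 14.7 against 2721 in CC. Some of these marker lists, though not all, were higher in CC, as were the 7 collagen genes. With 1 array per cell type, a shared direction cannot link them. The part of these markers in the collagen differences was not tested.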

How the data were processed

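RNA of SFZ cells and CC was analyzed on Affymetrix mouse expression arrays, with 1 array per cell type and 100 ng of total RNA. The authors deposited MAS5 signals, linear intensities per probe set, which were used as deposited. The sources used here do not give the version of MAS5 or its scaling target. Controls, 64 probe sets, were left out. The platform annotation gave 1 symbol to 34945 of the other 45037 probe sets, several to 932 and none to 9160, and only probe sets with 1 symbol named a gene. The symbols of all 34 collagen genes matched RefSeq through Entrez identifiers. The array names no genome build, so probe sets were given no coordinates, and those printed are of the RefSeq promoters on GRCm38.p6.

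Background was set per array at the 95th percentile over the receptor probe sets. Each gene was represented by its brightest probe set, by mean log2 signal. A gene was called higher where the signal was over 100 and the ratio over 2, the study's thresholds for SFZ cells, here used in both directions. A fold against a signal at or under background was computed against the background level of that array, as a bound. All collagen genes were named. From the synthesis list the genes past the thresholds, up to 4 each way, were named, and *Serpinh1* was chosen after its values were seen. Members, classes and lists were chosen with earlier results of these data known, and type VII, XV and XVIII were put with type IV. The counting code was run on simulated arrays, with changes made far larger than the threshold. That run checks the code and says nothing of genes near the threshold. The number of arrays limits the precision. Protein sequences were not used here. Alternatives were median scaling, quantile normalization, 64 added to both signals, other thresholds and other rules for probe sets. Python 3.11.15, numpy 2.4.6, pandas 2.3.3 and matplotlib 3.10.9 were used.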

Additional observations from a re-analysis of the deposited data

How the results depend on the processing

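The count of 0 collagen genes higher in SFZ cells held under every alternative, and the 7 higher in CC became 4 with quantile normalization, 4 with 64 added to both signals, 4 with the ratio raised to 3 and 2 if each probe set of a gene was required to pass. After scaling to equal medians 5 passed. The other thresholds and rules gave from 5 to 9. The median log2 ratio of basement membrane genes, -1.11, was -0.56 with 64 added, -0.29 with no filter on low signals and -0.47 with type IV only. With the median over probe sets, the median log2 ratio was -1.115 for FACIT genes and -1.81 for other collagens. Each was over fewer genes, since some fell to background on both arrays. With no filter, that of other collagens was 0.11, the value by construction of a gene under background on both arrays. The same value, 0.11, was given to *Col5a3* by the median over probe sets, as 1 of its 2 was under background. With the median over probe sets *Col4a1* minus *Col4a2* was -1.32, *Col4a5* minus *Col4a6* -0.014 and *Col8a1* minus *Col8a2* -1.64. With 64 added, *Col5a1* minus *Col5a3* was 0.56, *Col5a2* minus *Col5a3* 0.86, *Col4a5* minus *Col4a6* -0.075 and *Col8a1* minus *Col8a2* -1.67. Except where stated, the cause was not tested. No paired analysis was possible because each cell type has 1 array.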

Other observations

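Among 18 listed genes of matrix proteins found with collagens, laminin chains included, none passed the thresholds in SFZ cells (0 genes) and 5 passed in CC. The shares of all named genes were 1.18% for SFZ cells and 5.41% for CC. *Lamb1*, a laminin chain, had 186 (SFZ cells) and 1016 (CC), and *Nid1*, which links laminin to type IV collagen, had 501 (SFZ cells) and 2385 (CC). The other basement membrane genes of the list did not pass, with *Nid2* at 1661 (SFZ cells) and 2291 (CC), *Hspg2*, encoding perlecan, at 950.0 (SFZ cells) and 917 (CC), *Lama4* at 686 (SFZ cells) and 671 (CC) and *Lamc1* at 187 (SFZ cells) and 305 (CC). *Postn*, encoding periostin, which binds type I fibrils, had 138 in SFZ cells against 3394 in CC, and *Fbln2* and *Fbln1*, encoding fibulins, were at 158 and 102 in SFZ cells and at 778 and 246 in CC. *Sparc*, a collagen-binding glycoprotein, had 13025 in SFZ cells against 12156 in CC, near the top of the signal range. These genes were named after their values were seen.

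Of 9 collagen receptor genes named on the array, 1 was higher in CC, where 5.41% of all named genes were. With so few genes, this count is not read as a result about the receptors. *Itga1*, the integrin α1 chain that binds type IV collagen, had 116 in SFZ cells against 269 in CC. *Itga10*, the collagen-binding integrin chain of chondrocytes, was at 223 (SFZ cells) and 180 (CC), and the discoidin receptor genes *Ddr1* and *Ddr2* were at 2413 and 1591 in SFZ cells and at 3216 and 1151 in CC.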
